A study of Mus musculus with 3 samples.

Results

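The endocrine cell types of a control mouse islet, beta, alpha and delta cells, were compared with one another at baseline, with no reference to the knockout mice of the study. The genes compared were the 309 whose identifiers stood in at least 2 of the authors' 3 tables of cell types, out of 8237 genes in any of them. Of these, 162 were shared by the beta and alpha tables, 207 by the beta and delta tables, 68 by the alpha and delta tables, and 64 by all 3. The authors' tables hold genes that they listed as different between the genotypes, so the 309 genes are those listed in at least 2 cell types and are no random sample of islet transcripts. The control level is part of that comparison, so whether a gene was listed depends in part on the level compared here. Counts and medians of gene lists below therefore describe the listed genes only, not a trait of a cell type. Their median level in beta cells was 2.76 unique molecular identifiers (UMIs) per cell, against 0.286 over the whole beta table.

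The control was 1 NOD/ShiLtJ mouse with floxed IRE1α (IRE1αfl/fl) at 5 weeks of age. NOD mice are a strain that develops autoimmune diabetes. Like the 2 knockout mice of the series, which were not used here, this mouse had been injected with tamoxifen (10 mg/ml, on 5 days). Its islets were freed from the pancreas with collagenase and protease, picked by hand, kept in culture overnight and dissociated with accutase, and droplet libraries were made with the 10X Genomics system. Every statement below therefore describes 1 animal, the floxed allele and the tamoxifen were common to all of its cells, and there was no replicate and no test across mice.

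Pancreatic islets hold several hormone-secreting cell types that arise from a common progenitor. Beta cells secrete insulin together with islet amyloid polypeptide, alpha cells secrete glucagon, which acts against insulin, and delta cells secrete somatostatin, which restrains both neighbours. Pancreatic polypeptide is the product of a further, rarer type, the PP cell. All of them share the equipment of peptide-secreting cells, from the translocon and chaperones of the endoplasmic reticulum (ER) to the processing proteins of the secretory granule.

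The deposited values are mean UMIs per cell, a UMI standing for 1 captured transcript, and the values themselves gave 829 beta, 142 alpha and 101 delta cells in the control. Over the genes listed for each type these cells held 26156682, 359892 and 371122 UMIs, so that 1 UMI corresponds to 0.00121, 0.00704 and 0.0099 UMIs per cell. The means were not scaled for sequencing depth, and the total number of UMIs per alpha or delta cell is unknown, since those tables hold only 186 and 231 genes. Intervals in brackets are exact 95% intervals of a ratio and cover counting error only. They pool the UMIs of all cells of a type and treat each UMI as independent. The spread between cells and between mice is left out, and levels said to lie apart beyond counting error do so in this narrow sense.

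The labels of the cell types could be checked only in part. The beta table held 10 of 20 beta-cell markers, among them Ins1, Ins2 and Iapp, and none of the 10 was at 0. None of 18 alpha-cell markers stood in the alpha table, where Gcg and Ttr were not analysed here, so the label alpha has no support of its own in these values. Of 15 delta-cell markers the delta table held Rbp4 alone, and Sst in delta cells was not analysed here. Markers of other cell types were listed as well. Of 14 duct markers the beta table held 10, summing to 52.4 UMIs per cell, while 3 in alpha cells summed to 10.7 and 5 in delta cells to 43.6, over different genes in each. Both acinar markers of the beta table, Reg3b and Spink1, were at 0, its 2 endothelial markers summed to 0.192 UMIs per cell, its 3 red-cell markers to 0.0639 and its 4 immune markers to 0.641. S100a9 in alpha cells (1.09 UMIs per cell) and C1qa in delta cells (1.04 UMIs per cell) were the immune markers listed there.

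The 4 hormone and carrier genes Ins1, Iapp, Ppy and Rbp4 carried some of the widest differences between the types, and the 250 bases before their annotated starts are shown here from RefSeq (build GRCm38.p6), each read 5′ to 3′ along the gene's own strand. Ins1 (chr19:52264047-52264296, plus strand) and Iapp (chr6:142298175-142298424, plus strand) encode the secreted products of beta cells. Ppy (chr11:102101320-102101569, minus strand) encodes pancreatic polypeptide, and Rbp4 (chr19:38125322-38125571, minus strand, the first of 2 annotated starts) encodes the retinol carrier of plasma. Capitals mark every match, on either strand, to TAAT, the core of homeodomain sites, to CATCTG, an E-box, and to TATAAA, the TATA box.
Ins1: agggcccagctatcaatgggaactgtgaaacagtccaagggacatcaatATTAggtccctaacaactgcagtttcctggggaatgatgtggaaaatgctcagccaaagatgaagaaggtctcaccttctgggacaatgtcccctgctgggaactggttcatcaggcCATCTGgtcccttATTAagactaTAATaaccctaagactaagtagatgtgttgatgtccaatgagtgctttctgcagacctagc
Iapp: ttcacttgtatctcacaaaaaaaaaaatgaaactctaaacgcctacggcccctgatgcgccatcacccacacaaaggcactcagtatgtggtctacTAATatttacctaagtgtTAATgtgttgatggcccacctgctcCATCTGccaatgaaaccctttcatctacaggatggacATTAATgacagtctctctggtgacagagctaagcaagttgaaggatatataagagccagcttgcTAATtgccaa
Ppy: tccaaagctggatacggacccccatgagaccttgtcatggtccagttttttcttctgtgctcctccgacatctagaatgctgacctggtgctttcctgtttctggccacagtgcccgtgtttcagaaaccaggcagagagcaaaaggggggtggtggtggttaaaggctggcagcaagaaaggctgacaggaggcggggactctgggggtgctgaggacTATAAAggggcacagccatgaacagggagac
Rbp4: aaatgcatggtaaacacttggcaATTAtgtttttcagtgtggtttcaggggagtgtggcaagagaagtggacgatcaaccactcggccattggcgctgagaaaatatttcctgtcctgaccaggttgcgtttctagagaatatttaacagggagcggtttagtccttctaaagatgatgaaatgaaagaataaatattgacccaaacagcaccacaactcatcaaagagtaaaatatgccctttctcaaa
TAAT occurred 3 times before Ins1, 5 times before Iapp, where 1 pair of matches overlaps, and 1 time before Rbp4, and it was not found in the Ppy window. TGACGT, the core of the cyclic AMP response element, was searched for as well and was not found in these 4 windows. CATCTG occurred 1 time before Ins1, with its first base 84 bases before the start, and 1 time before Iapp, 111 bases before it. TATAAA was found in the Ppy window alone of the 4, 31 bases before the start. All positions count from the annotated start, and where transcription begins in these cells was not measured. Bases after that start were not searched, so absence from a window does not show absence from a promoter. Such letters are common: of 32851 promoter windows of this length in the same table, 54.9% held TAAT, 14.4% CATCTG, 12.4% TATAAA and 6.47% TGACGT. A match describes the sequence only, and binding of any factor was not measured. Ins2 and Ttr had no entry in the promoter table.

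Most genes of each pair lay within 2-fold of one another in different endocrine types. Since no test was possible with 1 mouse, a gene was counted by a fold of at least 2. A gene entered a pair only if it was listed for both types. The alpha and delta tables held 186 and 231 genes, against 8193 in the beta table. Genes high in beta cells but not listed for the other type could not be counted, so the sides of these pairs are not equally covered. Of 161 genes with a ratio between beta and alpha cells, 15 were at least 2-fold higher in beta cells (9.32%) and 27 in alpha cells (16.8%), which together make 26.1%. Between beta and delta cells, 45 of 206 genes were at least 2-fold higher in beta cells (21.8%) and 22 in delta cells (10.7%), together 32.5%. Between alpha and delta cells, 9 of 68 genes were at least 2-fold higher in alpha cells (13.2%) and 7 in delta cells (10.3%), together 23.5%.

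**Figure D1:**
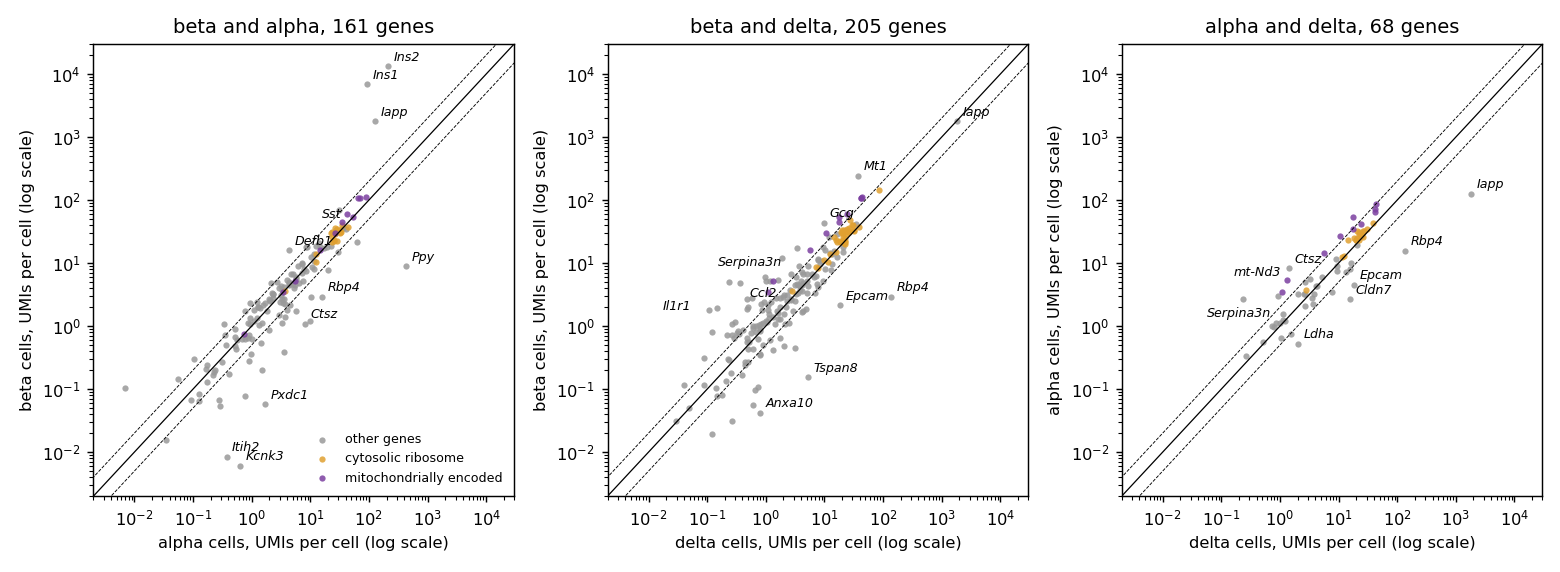
Mean UMIs per cell in the control mouse for each pair of cell types, on log axes, 1 point per gene (161, 205 and 68 genes; Batf, with no UMI in delta cells, is not drawn). The solid line marks equal levels and the dashed lines a fold of 2; most points lie between the dashed lines, and Ins1, Ins2, Ppy, Rbp4, Tspan8 and Kcnk3 lie far from them.

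The median gene stood at a log2 ratio of 0.01 for beta over alpha, 0.25 for beta over delta and 0.26 for alpha over delta. As deposited, 81 of 161 genes were higher in beta than in alpha cells. Against delta cells, 137 of 206 genes were higher in beta cells and 48 of 68 in alpha cells. Delta cells thus had slightly fewer UMIs for the typical shared gene, and whether this reflects depth per cell could not be told apart from the RNA content of the cells. When the pair was centred on its median, the split between beta and delta was 40 to 31 in place of 45 to 22. Scaled to the ribosomal protein genes it was 32 to 34, and scaled to the summed level of all genes but hormones 27 to 37. The last scale includes the mitochondrial transcripts, 541 of 2500 UMIs per beta cell and 206 of 1767 per delta cell, so genes that differ widely weigh on it. Between alpha and delta cells, each of these scalings gave 8 to 9 in place of 9 to 7. Between beta and alpha cells the split kept its direction under all 3, with 29.3% to 35.7% of the genes past 2-fold on the beta side. Differences close to 2-fold between beta and delta cells are therefore read below beside the shift of 0.25 to 0.50 on the log2 scale that these scalings make.

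The insulin genes and Iapp set beta cells apart from alpha cells. Ins2 stood at 13373 UMIs per beta cell and 214 per alpha cell, a 62.4-fold difference (61.7 to 63.1). Ins1 stood at 6899.8 and 93.6 UMIs per cell, 73.7-fold higher in beta cells (72.5 to 75.0). These paralogs encode the 2 insulins of the mouse, their transcripts are alike, and how reads matching both were counted is not given in the sources used here. Iapp, the amyloid peptide released with insulin, stood at 1781 UMIs per beta cell and 126 per alpha cell, 14.2-fold higher in beta cells (14.0 to 14.4).

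Delta cells differed from alpha cells in this respect. Iapp reached 1825 UMIs per delta cell, 1.02-fold the level in beta cells (1.02 to 1.03) and 14.5-fold that in alpha cells (14.3 to 14.7). The near equality with beta cells holds as deposited, and under the 3 scalings delta cells stood 1.22- to 1.45-fold above beta cells. Of the 64 genes in all 3 tables, Iapp and Sez6l, a membrane protein of neurons and endocrine cells, were the 2 that stood at least 2-fold lower in alpha cells than in both other types. Insulin transcripts in delta cells were not analysed here. The UMIs of Ins2 numbered 1.94 for each UMI of Ins1 in beta cells and 2.29 in alpha cells, whereas they numbered 7.51 for each UMI of Iapp in beta cells and 1.70 in alpha cells. The 3 beta-cell transcripts thus did not stand in 1 ratio in both types. Hormone UMIs can also reach a droplet as free RNA or from a doublet, and the part of either in these values was not tested.

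Ppy had the largest ratio of alpha over beta among genes whose higher level reached the median of the pair. It stood at 427 UMIs per alpha cell and 8.88 per beta cell, 48.1-fold higher in alpha cells (46.9 to 49.3). Of 4 markers of PP and epsilon cells, the beta table held Ppy and Pyy, summing to 21.7 UMIs per cell, the alpha table held Ppy alone and the delta table none. The alpha-cell hormone Gcg was not analysed in the same cells, and the part of PP cells among the cells called alpha was not tested.

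Transcripts of the hormones of other types were also counted in beta, alpha and delta cells. Sst, which encodes somatostatin, stood at 36.7 UMIs per beta cell and 36.8 per alpha cell, and the ratio of beta over alpha, 0.996 (0.967 to 1.03), held 1 within its interval. Gcg, which encodes glucagon, stood at 43.6 UMIs per beta cell and 10.0 per delta cell, 4.36-fold higher in beta cells (4.09 to 4.64). Ttr, the thyroid hormone carrier transthyretin and a marker of alpha cells, lay the same way, with 5.16 UMIs per beta cell and 1.01 per delta cell, a 5.11-fold difference (4.2 to 6.28). A further alpha-cell marker lay in the opposite direction: Gc, the vitamin D binding protein, stood at 0.449 UMIs per beta cell and 3.12 per delta cell, 6.95-fold higher in delta cells (5.96 to 8.10). The 3 alpha-cell markers shared by the beta and delta tables thus summed to 49.2 and 14.1 UMIs per cell without pointing 1 way.

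Rbp4 gave the widest difference between beta cells and delta cells on the delta side. It stood at 2.94 UMIs per beta cell, 15.7 per alpha cell and 137 per delta cell, and the 3 levels lay apart beyond their counting error. Delta cells exceeded beta cells 46.6-fold (44.6 to 48.7) and alpha cells 8.73-fold (8.34 to 9.13), and alpha cells exceeded beta cells 5.34-fold (5.04 to 5.66). It is the delta-cell marker by which the label of that type could be checked.

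**Figure D2:**
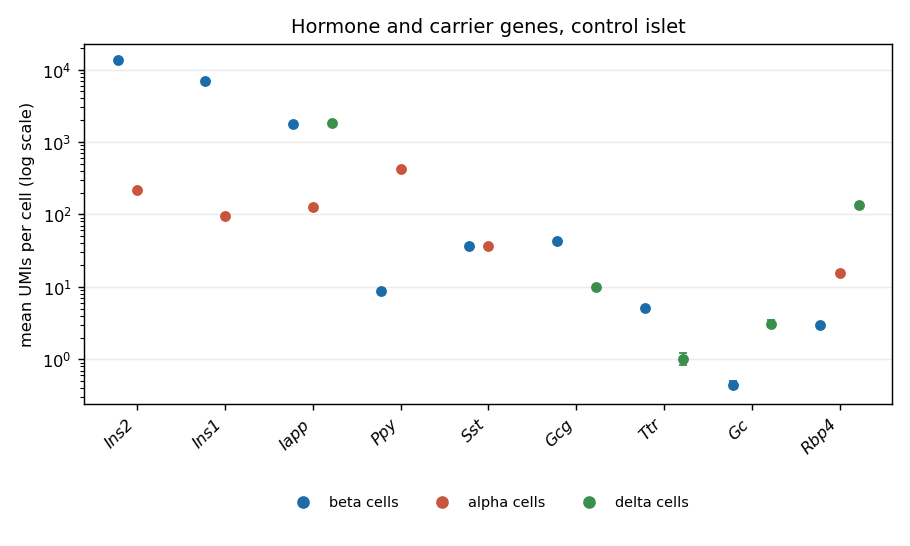
Mean UMIs per cell (log axis) of hormone and carrier genes in beta, alpha and delta cells of the control mouse; bars are exact 95% counting intervals and are often smaller than the points. A type is drawn only where the gene stood in its table: Iapp lies at 1781 and 1825 in beta and delta cells and at 126 in alpha cells, and Rbp4 climbs from 2.94 to 137.

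Proteins of the secretory granule, apart from the hormones, leaned towards alpha cells where they could be compared. Of 25 genes in that list, 4 were shared by the beta and alpha tables. Of these, 3 were higher in alpha cells and 2 by at least 2-fold, against 16.8% past 2-fold over all genes of the pair. Their median log2 ratio of beta over alpha was -0.89, against 0.01 over all genes. Resp18, a granule protein of endocrine cells, stood at 21.9 UMIs per beta cell and 63.6 per alpha cell, 2.91-fold higher in alpha cells (2.84 to 2.98). Vgf, a precursor of secreted peptides, stood at 1.76 and 5.65 UMIs per cell (3.21-fold, 2.94 to 3.50), and Scg5, the chaperone of the prohormone convertase PCSK2, at 34.2 and 40.6 (1.19-fold, 1.15 to 1.22). Vamp2, the vesicle protein that drives fusion of granules, was the exception, at 1.99 UMIs per beta cell and 1.30 per alpha cell (1.54-fold, 1.32 to 1.80). Between beta and delta cells, Ptprn, a membrane protein of granules and an autoantigen in type 1 diabetes, stood at 9.80 and 8.43 UMIs per cell. Pcsk1n, an inhibitor of the prohormone convertase PCSK1, stood at 41.0 and 34.0. Both lay 1.16- to 1.20-fold higher in beta cells, which is less than the 1.19-fold of the median gene in 1 case and about equal to it in the other; both were higher in delta cells under the scaling to all genes but hormones.

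Of the epithelial surface genes, Epcam alone was measured in all 3 types, and it was lowest in beta cells and highest in delta cells. Epcam, the epithelial cell adhesion molecule, stood at 2.12 UMIs per beta cell, 4.55 per alpha cell and 18.4 per delta cell. That made delta cells 8.66-fold higher than beta cells (8.11 to 9.25) and 4.04-fold higher than alpha cells (3.70 to 4.43), with alpha cells 2.14-fold above beta cells (1.96 to 2.35). The tight-junction protein Cldn7 stood at 2.69 UMIs per alpha cell and 15.6 per delta cell, a 5.80-fold difference (5.18 to 6.50), and its relative Cldn4 at 1.38 per beta cell and 3.69 per alpha cell (2.68-fold, 2.41 to 2.97). Tspan8, a tetraspanin of epithelial membranes, stood at 0.154 UMIs per beta cell and 5.29 per delta cell, 34.2-fold higher in delta cells (28.2 to 41.9). The mucin Muc1 stood at 0.110 and 0.723 UMIs per cell (6.58-fold, 4.77 to 9.06), and the annexin Anxa5 at 3.35 and 6.96 (2.08-fold, 1.91 to 2.26). Tm4sf4, a further tetraspanin-like protein, went the other way, with 2.91 UMIs per beta cell and 1.96 per delta cell.

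Several of these genes also mark pancreatic ducts. Of 14 duct markers, 5 were listed for delta cells (Anxa5, Cldn7, Epcam, Muc1 and Tm4sf4), 3 for alpha cells and 10 for beta cells, none of them at 0, while the keratin Krt19 and the duct factors Sox9 and Cftr were not analysed here in any type. The 4 markers shared by the beta and delta tables summed to 8.5 UMIs per beta cell and 28.0 per delta cell, with 3 of 4 higher in delta cells and a median log2 ratio of -1.89 against 0.25 over all genes of the pair. Being listed rests in part on these control levels, so this median does not describe duct markers at large. Both markers shared by the alpha and delta tables were higher in delta cells, 7.24 and 34.0 UMIs per cell in sum. The part of duct cells in the delta values was not tested. Krt8, a keratin of simple epithelia, was shared by beta and alpha cells only, at 2.35 and 3.42 UMIs per cell (1.46-fold higher in alpha cells, 1.31 to 1.61).

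Both members of the lysosome list that beta and alpha cells shared, Ctsz and Ctsl, were at least 2-fold higher in alpha cells, against 16.8% of all genes of the pair. The lysosomal protease gene Ctsz stood at 1.09 UMIs per beta cell, 8.27 per alpha cell and 1.42 per delta cell, 7.61-fold higher in alpha than in beta cells (6.97 to 8.31) and 5.84-fold higher than in delta cells (4.91 to 7.0). It was the 1 gene of the 64 in all tables that led in alpha cells by at least 2-fold over both other types. Ctsl, which encodes cathepsin L, stood at 7.64 UMIs per beta cell and 20.1 per alpha cell (2.63-fold, 2.52 to 2.75). Cst3, an inhibitor of cathepsins, stood at 14.9 and 30.2 UMIs per cell (2.03-fold, 1.96 to 2.10), so protease and inhibitor genes differed in 1 direction. Other genes of the lysosome list were few, 2 of 29 being shared by each pair with beta cells.

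Igfbp7, a secreted binding protein of insulin-like growth factors, stood at 1.20 UMIs per beta cell and 9.74 per alpha cell, 8.12-fold higher in alpha cells (7.48 to 8.82). It is also a marker of mesenchymal cells. Of 11 mesenchymal markers the beta table held 7, summing to 1.26 UMIs per cell with Col1a1 and Dcn at 0, and the alpha table held Igfbp7 alone, so the part of such cells was not tested. Aplp1, an amyloid precursor-like protein of the membrane, stood at 2.91 and 10.3 UMIs per cell (3.53-fold, 3.30 to 3.77). Id3, an inhibitor of basic helix-loop-helix factors, stood at 0.388 and 3.61 UMIs per cell (9.30-fold, 8.08 to 10.7), while its relative Id2 differed less, at 1.02 and 1.35. All 4 genes of the adhesion and surface list that beta and alpha cells shared were at least 2-fold higher in alpha cells, against 16.8% of all genes of the pair. Their median log2 ratio was -1.62, against 0.01 over all genes. Tubb5, a beta-tubulin, stood at 1.77 and 3.97 UMIs per cell (2.24-fold, 2.03 to 2.48).

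Some genes with large ratios on the alpha side were close to absent from beta cells, and the following were chosen after their values were seen. Kcnk3, a potassium leak channel, stood at 0.00603 UMIs per beta cell and 0.627 per alpha cell, a ratio of 104 (42.9 to 328). Itih2, an inter-alpha-trypsin inhibitor chain, stood at 0.00844 and 0.373 UMIs per cell (44.2-fold, 20 to 115), and Pxdc1 at 0.0579 and 1.72 (29.7-fold, 21.7 to 41.3). Gfra3, a receptor of the neurotrophic factor artemin, stood at 0.0784 and 0.782 (9.97-fold, 7.28 to 13.8). Tmsb15b1, a thymosin, stood at 0.2 and 1.51 (7.56-fold, 6.15 to 9.32), and the homeobox gene Barx2 at 0.0543 and 0.289 (5.32-fold, 3.40 to 8.31). Their levels in delta cells were not analysed here. On the beta side, Nol3 gave a comparable ratio of 14.7, but with 0.00704 UMIs per alpha cell, the level of 1 UMI, its interval ran from 2.57 to 589.

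Besides the insulins, Iapp and Nol3, the 15 genes at least 2-fold higher in beta than in alpha cells had ratios of 3.71 or less. Beta-cell genes that were not listed for alpha cells could not enter this count, so it does not describe beta-cell genes at large. Defb1, an epithelial defensin, stood at 15.9 UMIs per beta cell and 4.30 per alpha cell (3.71-fold, 3.42 to 4.03). The ferritin light chain Ftl1 stood at 69.5 and 30.6 UMIs per cell (2.27-fold, 2.20 to 2.34), and Gde1, a glycerophosphodiester phosphodiesterase, at 4.90 and 2.12 (2.31-fold, 2.06 to 2.61). Fth1, the ferritin heavy chain, chosen after its values were seen, was shared with delta cells instead, at 28.9 UMIs per beta cell and 16.2 per delta cell (1.78-fold, 1.70 to 1.88). Mif, a cytokine stored in beta cells, stood at 18.1 UMIs per beta cell, 8.94 per alpha cell and 9.33 per delta cell, 2.02-fold above alpha cells (1.91 to 2.14) and 1.94-fold above delta cells (1.81 to 2.07). The alpha and delta levels of Mif did not lie apart beyond counting error (delta over alpha 1.04, 0.958 to 1.14).

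Serpina3n, Ccl2, Lrg1, Il1r1 and Stat3 were at least 2-fold higher in beta than in delta cells. Serpina3n, an acute phase protease inhibitor, stood at 5.05 UMIs per beta cell, 2.72 per alpha cell and 0.238 per delta cell. Beta cells exceeded delta cells 21.2-fold (14.3 to 33.2) and alpha cells 1.86-fold (1.67 to 2.07), and alpha cells exceeded delta cells 11.4-fold (7.57 to 18.1). It belongs to a family of close paralogs, among which reads could have been divided. The chemokine Ccl2, which attracts monocytes, stood at 4.86 UMIs per beta cell and 0.366 per delta cell (13.3-fold, 9.60 to 18.9). Lrg1, a secreted acute phase glycoprotein, stood at 1.96 and 0.149 UMIs per cell (13.2-fold, 7.98 to 23.6), and Il1r1, the receptor of interleukin-1, chosen after its values were seen, at 1.77 and 0.109 (16.2-fold, 9.04 to 32.6). Stat3, the transcription factor that acts downstream of interleukin-6, stood at 5.45 and 1.64 UMIs per cell (3.32-fold, 2.84 to 3.90). Socs3, its feedback inhibitor, stood at 1.09 and 0.822 (1.33-fold, 1.06 to 1.68), a ratio near that of the median gene. Of 18 genes in the acute phase list, the 3 shared by this pair (Lrg1, Stat3 and Socs3) were higher in beta cells, with a median log2 ratio of 1.73 against 0.25 over all genes. Their listing rests in part on these control levels, so the median does not describe the acute phase list at large. Under the scaling to all genes but hormones, 2 of the 3 were higher in beta cells, with a median of 1.23 and Socs3 at -0.09. None of the 4 immune markers listed for beta cells (Cd68, Cd74, Cd79a and Lyz2) was shared with delta cells, and their part in these differences was not tested.

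Metallothionein, antioxidant and further genes lay in the same direction between these types. The metallothionein Mt1, a binder of zinc and other metals, stood at 244 UMIs per beta cell and 37.7 per delta cell (6.47-fold, 6.27 to 6.68). Sod2, the mitochondrial superoxide dismutase, stood at 17.2 and 3.40 UMIs per cell (5.07-fold, 4.56 to 5.66). Glul, which encodes glutamine synthetase, stood at 6.10 and 0.980 (6.22-fold, 5.10 to 7.67), and Rgs4, a regulator of G-protein signalling, at 11.9 and 1.90 (6.28-fold, 5.45 to 7.29). Gsdma, a gasdermin, stood at 5.27 and 1.19 UMIs per cell (4.44-fold, 3.70 to 5.36). Among genes chosen after their values were seen, the tyrosine phosphatase Ptpn1 was 4.09-fold (3.09 to 5.53), Snx10, a sorting nexin, 5.61-fold (4.21 to 7.63), Serpina10 4.80-fold (3.70 to 6.35) and Acly, the ATP citrate lyase of lipid synthesis, 2.44-fold higher in beta cells (2.20 to 2.72). Each of these genes stayed higher in beta cells after the largest of the scalings, a shift of 0.50 on the log2 scale. Antioxidant genes shared by beta and alpha cells were mixed, with Gstp1 at 0.537 and 1.46 UMIs per cell, Prdx1 at 4.76 and 6.33 and Gstm1 at 0.719 and 0.352.

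**Figure D3:**
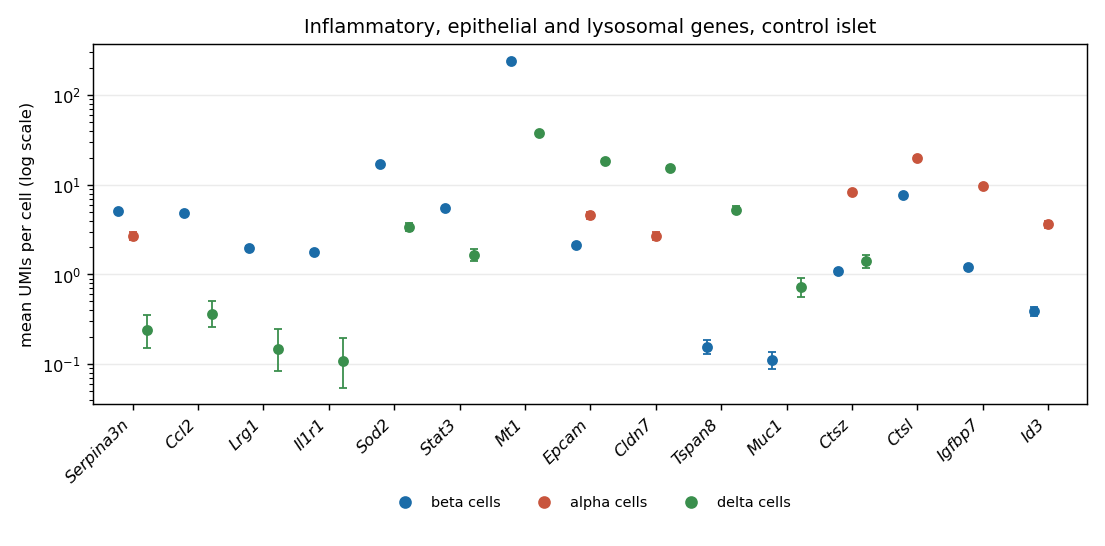
Mean UMIs per cell (log axis) of inflammatory, metallothionein, epithelial and lysosomal genes in the 3 cell types of the control mouse, drawn where the gene stood in that type's table; bars are exact 95% counting intervals. From Serpina3n to Mt1 the beta points lie above the delta points, from Epcam to Muc1 the delta points lie highest, and from Ctsz to Id3 the alpha points lie highest.

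Delta cells carried more transcripts of the secretory pathway of the ER than beta cells for the members that could be compared. Ssr2, a subunit of the translocon-associated complex through which secreted proteins enter the ER, stood at 5.17 UMIs per beta cell, 7.39 per alpha cell and 9.41 per delta cell. Spcs2, of the signal peptidase that removes signal sequences, stood at 4.21, 3.52 and 7.84 UMIs per cell, and Dad1, of the oligosaccharyltransferase that adds glycans, at 12.4, 10.1 and 16.4. Each of the 3 was highest in delta cells, by 1.27-fold (1.16 to 1.39) for Ssr2, 1.86-fold (1.72 to 2.01) for Spcs2 and 1.32-fold (1.25 to 1.39) for Dad1 over the next type. They are 3 of 32 genes of the translocon list. Their median log2 ratio was -0.86 for beta over delta and -0.70 for alpha over delta, against 0.25 and 0.26 over all genes of these pairs. Of the 7 genes of this list shared by beta and alpha cells, 6 were higher in beta cells, with a median log2 ratio of 0.27 and none past 2-fold. Over all genes of that pair, 81 of 161 were higher in beta cells, at a median of 0.01. Scaled to all genes but hormones, 5 of the 7 were higher in beta cells, with a median of 0.16. As deposited, Ssr4, of the same translocon complex, led the 7 at 18.8 and 12.4 UMIs per cell (1.51-fold, 1.44 to 1.59), and Ssr2 was the exception.

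Among folding factors of the ER, Manf alone was measured in all 3 types, and it was highest in delta cells. Manf, an ER protein that cells release under ER stress, stood at 9.61 UMIs per beta cell, 7.11 per alpha cell and 13.4 per delta cell, the 3 levels lying apart beyond counting error. Fkbp11, a prolyl isomerase of secretory cells, stood at 1.66 UMIs per beta cell and 4.08 per delta cell (2.46-fold, 2.20 to 2.75), and Fkbp2, of the same family, at 7.85 and 13.0 (1.65-fold, 1.55 to 1.75). Sdf2l1, a cofactor of the chaperone BiP, did not differ beyond counting error, at 4.27 and 3.89 (beta over delta 1.10, 0.989 to 1.22). Of the 4 folding genes shared by beta and delta cells, 3 were higher in delta cells as deposited, against 69 of 206 over all genes of the pair. Their median log2 ratio was -0.60 against 0.25, and all 4 were higher in delta cells under each of the 3 scalings.

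Immediate early genes, which rise within minutes of a stimulus or of handling, were mostly higher in delta than in beta cells. Of 28 genes in the list 8 were shared by the pair. Of these, 6 were higher in delta cells and 2 by at least 2-fold, against 10.7% past 2-fold over all genes of the pair. The median log2 ratio of beta over delta was -0.75 against 0.25 over all genes. Under the scaling to all genes but hormones all 8 were higher in delta cells. Egr1, a zinc-finger factor, stood at 1.12 UMIs per beta cell, 3.27 per alpha cell and 2.53 per delta cell, 2.92-fold higher in alpha cells (2.61 to 3.27) and 2.27-fold higher in delta cells (1.97 to 2.61) than in beta cells. Ier2 stood at 1.71 UMIs per beta cell and 4.36 per delta cell (2.55-fold, 2.28 to 2.84). Junb and Fos, components of the factor AP-1, stood 1.63-fold (1.51 to 1.76) and 1.73-fold (1.52 to 1.96) higher in delta cells, and Zfp36, an mRNA decay factor, 1.94-fold higher (1.57 to 2.38). Fos and Zfp36 were chosen after their values were seen. Jund lay close to equal, at 6.68 UMIs per beta cell and 6.23 per delta cell. All cells had been cultured overnight and dissociated, and the part of that handling was not tested.

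Transcripts encoded by the mitochondrial genome were lowest in delta cells. All 10 that beta and delta cells shared were at least 2-fold higher in beta cells, against 21.8% of all genes of the pair. Their median log2 ratio was 1.45 against 0.25 over all genes. All 10 were also higher in alpha than in delta cells, against 48 of 68 over all genes of that pair. Of the 10, 6 were higher by at least 2-fold, against 13.2% of all genes, with a median of 1.17 against 0.26. The cytochrome oxidase subunit mt-Co1 stood at 108 UMIs per beta cell, 64.1 per alpha cell and 42.0 per delta cell, and mt-Co3 at 110.1, 87.8 and 43.5. Subunits of complex I were mixed between beta and alpha cells. The subunit mt-Nd1 stood at 53.4, 54.3 and 17.9 UMIs per cell, and mt-Nd3 at 5.17, 5.39 and 1.34. In mt-Nd1, mt-Nd3 and mt-Nd5 the ratio of alpha over beta held 1 within its interval (1.02, 0.993 to 1.04 for mt-Nd1). By contrast, mt-Nd2 and mt-Nd4 were 1.10-fold and 1.14-fold higher in beta than in alpha cells, beyond counting error. Outside complex I, mt-Co1, mt-Atp6 and mt-Cytb were 1.68-fold, 1.53-fold and 1.44-fold higher in beta than in alpha cells. Between beta and alpha cells 8 of 11 mitochondrial transcripts were higher in beta cells, none by 2-fold, at a median log2 ratio of 0.19. Scaling to the summed level of all genes but hormones left all 10 higher in beta than in delta cells but only 5 past 2-fold, with a median of 0.95. The 10 are themselves part of that scale, with 541 of 2500 UMIs per beta cell and 206 of 1767 per delta cell. This scaling therefore shrinks their ratios in part by construction. The share of mitochondrial UMIs per cell is also used as a filter on cell quality, and which filter the authors applied is not given in the sources used here.

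Nuclear genes of oxidative phosphorylation differed in the same direction but by less. Of 7 shared by beta and delta cells, 6 were higher in beta cells, against 137 of 206 over all genes of the pair. Their median log2 ratio was 0.50, against 0.25 over all genes, and -0.0029 under the scaling to all genes but hormones. Atp5e, a subunit of ATP synthase, stood at 26.3 UMIs per beta cell and 12.0 per delta cell (2.20-fold, 2.07 to 2.33), and Cox6c, of cytochrome oxidase, at 16.0 and 10.2 (1.58-fold, 1.48 to 1.68). Atpif1, the inhibitor of ATP synthase, was the exception, at 6.34 and 7.12 UMIs per cell. Of the 3 shared by beta and alpha cells, Atp5g1, of ATP synthase, stood at 18.0 UMIs per beta cell and 8.43 per alpha cell (2.14-fold, 2.02 to 2.27), while Atp5c1 was higher in alpha cells, at 4.01 and 5.24.

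Genes of the cytosolic ribosome stayed within 2-fold in all 3 pairs. The 19 shared by beta and alpha cells had a median log2 ratio of -0.04, with 9 higher in beta and 10 in alpha cells. The 38 shared by beta and delta cells had a median of 0.25, the same as all genes of the pair. Of them 31 were higher in beta cells, against 137 of 206 over all genes. Under the scaling to all genes but hormones the median was -0.25, so their direction rests on the scale. The scaling to the ribosomal genes (median -0.10) makes their summed levels equal by construction and cannot show a direction. Of the 19 shared by alpha and delta cells 18 were higher in alpha cells as deposited, with a median of 0.26, against 48 of 68 over all genes. Under the scaling to all genes but hormones 13 were higher in alpha cells. Rplp1, an acidic stalk protein, was the member with the widest difference, at 48.7 UMIs per beta cell and 27.1 per delta cell (1.80-fold, 1.73 to 1.87), and Rpl36a had the widest on the other side, at 10.2 and 11.7. Ribosomal protein genes have many processed copies in the genome, among which reads could have been divided.

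**Figure D4:**
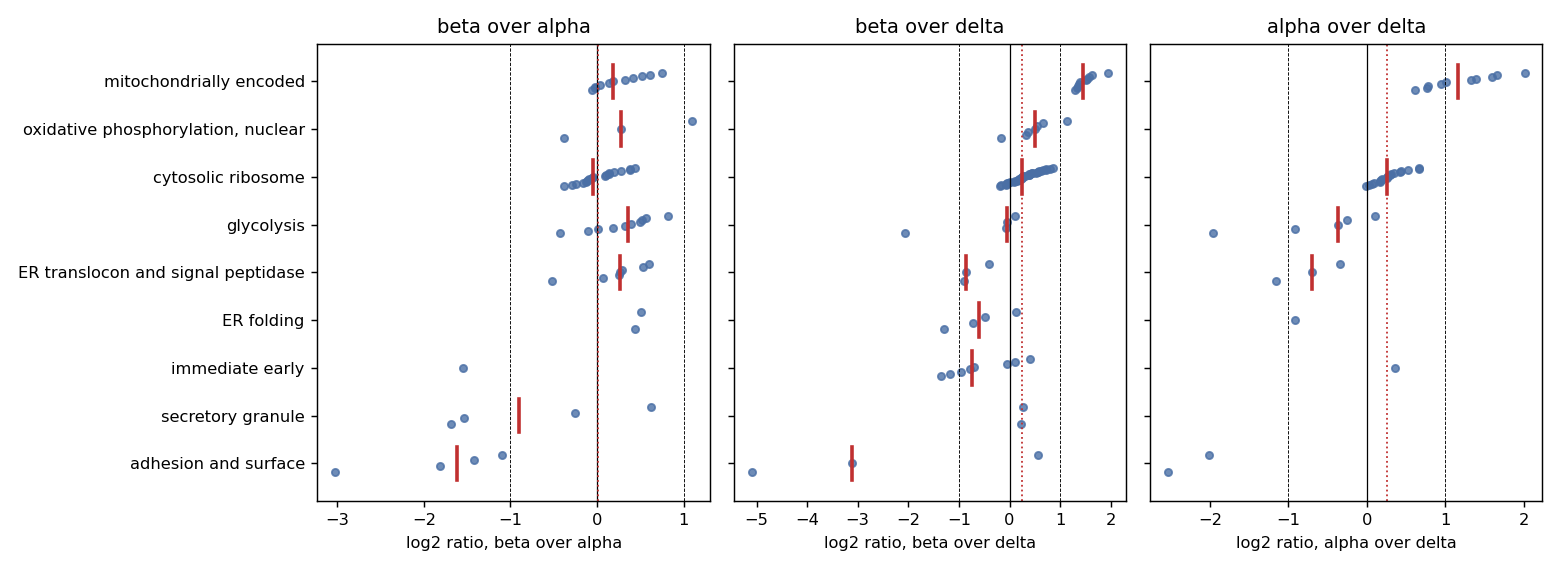
The log2 ratio of mean UMIs per cell for each pair of cell types, 1 point per gene, grouped by gene list (rows); thick red lines are list medians where a list has 3 or more genes, dotted red lines the median of all genes of the pair, and dashed lines a fold of 2. Mitochondrially encoded transcripts lie right of the dotted line against delta cells (medians 1.45 and 1.17), all adhesion genes but Tm4sf4 lie left of it, and ribosomal genes scatter around it. The ribosomal median of beta over delta turns to -0.25 when scaled to all genes but hormones.

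Genes of glycolysis, which feeds glucose metabolism in all types, were higher in beta than in alpha cells in 8 of 10 cases, with a median log2 ratio of 0.36 and none past 2-fold. Over all genes of the pair, 81 of 161 were higher in beta cells, at a median of 0.01. Gapdh stood at 21.0 UMIs per beta cell and 14.1 per alpha cell (1.49-fold, 1.42 to 1.56), and the glucose transporter Slc2a1 at 0.910 and 0.514 (1.77-fold, 1.39 to 2.28). The lactate dehydrogenase gene Ldha, held at a low level in mature beta cells, stood at 0.490 UMIs per beta cell, 0.528 per alpha cell and 2.05 per delta cell. Delta cells exceeded beta cells 4.18-fold (3.52 to 4.96) and alpha cells 3.88-fold (2.97 to 5.12), while the beta and alpha levels did not lie apart beyond counting error. Aldoa, an aldolase, was also higher in delta than in alpha cells, at 15.4 and 8.14 UMIs per cell (1.89-fold, 1.75 to 2.04). Tpi1, by contrast, lay at 4.41, 4.38 and 4.09 UMIs per cell in beta, alpha and delta cells, and no pair of these levels differed beyond counting error. Of 4 glycolysis genes shared by beta and delta cells, 1 was higher in beta cells as deposited, against 137 of 206 over all genes of the pair. Their median log2 ratio was -0.06 against 0.25, and under each of the 3 scalings 0 of the 4 were higher in beta cells. Of 5 shared by alpha and delta cells, 4 were higher in delta cells, against 20 of 68 over all genes of that pair. Their median log2 ratio was -0.37 against 0.26. All 4 genes of the hypoxia list shared by beta and alpha cells were higher in beta cells, against 81 of 161 over all genes of the pair. Their median was 0.74 against 0.01. They were Mif, Fam162a (2.35 and 0.937 UMIs per cell, 2.51-fold, 2.11 to 3.02), Bnip3 (2.17 and 1.56) and Ak4 (0.242 and 0.176), the last with an interval that held 1.

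Across the 64 genes in all 3 tables, beta cells had the highest level of 30, alpha cells of 22 and delta cells of 12. Delta cells had the lowest level of 39 genes, alpha cells of 11 and beta cells of 14. This order rests on the scale, since 23 to 25 of the genes were highest in delta cells under the 3 scalings. Levels lay within 2-fold over all 3 types for 39 genes and within 1.5-fold for 25. Counting error separated both neighbours in the order for 34 genes, 1 of the 2 neighbouring pairs for 26, and neither for 4.

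A gene listed for fewer than 3 types, such as Ins1, Ins2 or Ppy, could not be counted here, so the counts do not show how common single-type genes are. Few of the 64 genes in all 3 tables stood apart in a single type. Those at least 2-fold above both other types were Hist1h4i in beta cells (1 gene, 1.56%), Ctsz in alpha cells (1 gene, 1.56%) and Rbp4, Epcam and Ldha in delta cells (3 genes, 4.69%). Hist1h4i, a histone H4 gene, one of many copies that encode the same protein, stood at 1.09 UMIs per beta cell, 0.338 per alpha cell and 0.267 per delta cell. Those at least 2-fold below both other types were Rbp4, Egr1, Cpq and Epcam in beta cells, Iapp and Sez6l in alpha cells, and 8 genes in delta cells. These 8 were Serpina3n, Dst and 6 mitochondrial transcripts. Dst, a linker of the cytoskeleton, stood at 2.37, 2.99 and 0.941 UMIs per cell in beta, alpha and delta cells, and Cpq, a secreted carboxypeptidase, at 0.359, 0.958 and 0.802. Hist1h4i, Dst, Cpq and Sez6l are named as members of these small counts, chosen after their values were seen.

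**Figure D5:**
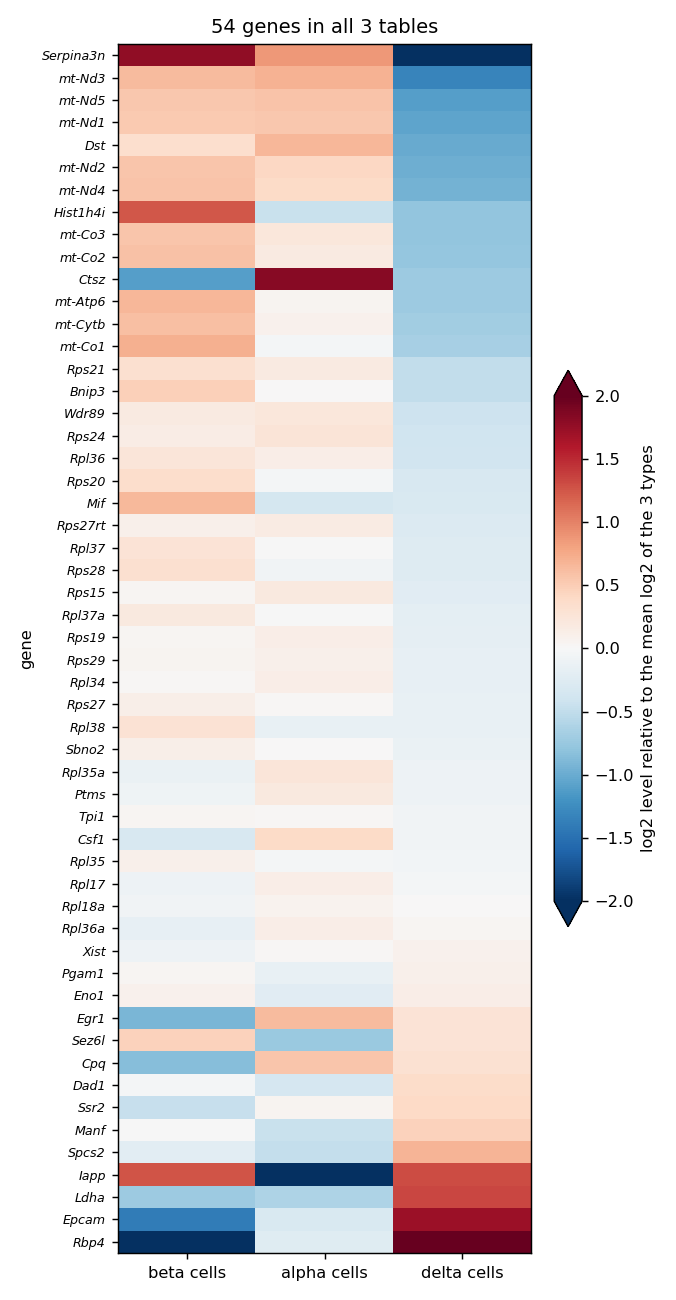
Levels of 54 of the 64 genes in all 3 tables (rows; mainly predicted genes and processed copies were left out) in beta, alpha and delta cells, as log2 UMIs per cell relative to the gene's mean log2 over the 3 types, with the colour scale ending at 2 in both directions. Rows are sorted by the delta value: mitochondrial transcripts and Serpina3n lie at the top with delta lowest, ribosomal genes lie in the pale middle, and Ldha, Epcam and Rbp4 lie at the bottom with delta highest.

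Some genes were nearly level across the endocrine types. Xist, the noncoding RNA of X inactivation, stood at 17.8 UMIs per beta cell, 19.3 per alpha cell and 20.3 per delta cell. The ribosomal gene Rps29, chosen after its values were seen, stood at 31.0, 31.9 and 26.6. Pgam1, a further gene of glycolysis, lay at 3.68, 3.25 and 3.85 UMIs per cell.

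Delta cells exceeded beta cells in some further genes of low level, also chosen after their values were seen. Anxa10, an annexin, stood at 0.0422 UMIs per beta cell and 0.792 per delta cell (18.8-fold, 12.5 to 28.8), and Ptprg, a receptor tyrosine phosphatase, at 0.0567 and 0.594 (10.5-fold, 7.03 to 15.7). Ehf, an epithelial factor of the ETS family, stood at 0.425 and 1.34 UMIs per cell (3.15-fold, 2.56 to 3.85). At a higher level, S100a6, a calcium-binding protein, stood at 1.89 and 4.93 (2.61-fold, 2.36 to 2.89), a gene that the naming rule had taken. Batf, a factor of the AP-1 family, was at 0 in 101 delta cells, which allows up to 0.0297 UMIs per cell, and at 0.0724 in beta cells, at least 2.44-fold higher.

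The remaining lists had few members in any pair. Hspa8, a constitutive heat shock protein, stood at 8.03 UMIs per beta cell and 11.8 per alpha cell (1.47-fold, 1.39 to 1.55), and Hsp90aa1 at 6.09 per beta cell and 6.69 per delta cell. Cebpb, a factor of both the acute phase and the integrated stress response, stood at 4.38 and 3.11 UMIs per beta and alpha cell (1.41-fold, 1.28 to 1.56). Psme2, an activator of the proteasome that interferon induces, lay level between them, at 7.98 and 7.80. The proteasome genes Psma2 and Pomp were higher in alpha cells by 1.35-fold (1.23 to 1.49) and 1.09-fold (1.01 to 1.18), and the translation factor Eif1 was higher in beta cells by 1.22-fold (1.18 to 1.26). Actb, the cytoplasmic actin, stood at 8.11 UMIs per beta cell and 10.2 per delta cell (1.26-fold, 1.18 to 1.34). Of 22 islet transcription factors Myt1 alone was shared by a pair, at 0.142 UMIs per beta cell and 0.0563 per alpha cell (2.53-fold, 1.24 to 5.99). In all, 144 of the 309 genes stood in at least 1 of 31 lists, 165 in none, and 2 had too few UMIs for a ratio, namely Tnc in beta and alpha cells and Wfdc18 in beta and delta cells.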

How the data were processed

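Islet cells of 1 control mouse were profiled in droplets. Per the submitters' processing notes, Cell Ranger 3.0.0 and mm10 were used. The sources used here do not give cell filters, the treatment of doublets and free RNA, the assignment of cells to types or the test behind the tables. The authors deposited, per cell type, a signal value for each gene they listed, a mean of UMIs over the cells of each group. Only the control column of each table was used, and 5 columns of the knockout mice were not.

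Cell numbers were worked out as the smallest whole number that turned the values into whole UMIs within 0.001 (99.99% of beta, 100% of alpha and 100% of delta values); a multiple of it would narrow the intervals. Intervals of ratios are exact (Clopper-Pearson, 95%), of levels exact Poisson. A UMI of 0 was set to 3 UMIs over that type's cells, as a bound. With 1 control mouse there was no test, and a fold of at least 2 was counted; the calculation was tested on simulated data.

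The genes and the 31 gene lists were chosen with earlier results of these data known. A list's counts cover only members that the authors listed in both types; the others were not analysed here. Named genes are, per pair, the 10 highest and 10 lowest log2 ratios among genes whose higher level reached the pair's median, without predicted genes, plus fixed hormones and markers and up to 4 genes per list; the report says where a gene falls outside this rule. GENCODE M21 (mm10) matched 309 of 309 identifiers, and 218 had a RefSeq promoter. Some genes are not reported here. Alternatives were other folds, a filter on levels under 0.1, 3 scalings, a pseudocount, the counting interval and the genes in all 3 tables. Python 3.11.15, numpy 2.4.6, pandas 2.3.3, scipy 1.17.1 and matplotlib 3.10.9 were used.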

Additional observations from a re-analysis of the deposited data

How the results depend on the processing

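Of the recomputed counts, 69 stayed within 1.5 times the value given and 27 moved further. The balance between types turned in favour of delta cells in both of its pairs: against beta cells under the ribosomal and the non-hormone scalings, and against alpha cells (8 to 9) under all 3. With a fold of 1.5, 25 genes were higher in beta than in alpha cells, 36 in delta than in beta cells, 18 in alpha and 12 in delta cells between those types, and 7 led in beta cells over both others. With a fold of 4, 4 and 12 genes were higher in beta and alpha cells, 16 and 11 in beta and delta cells, 3 and 4 in alpha and delta cells, and 0 led in beta cells. The pseudocount left 9 genes higher in beta than in alpha cells, 4 in delta than in alpha cells and 0 leading in beta cells. Among genes in all 3 tables only, 4 and 5 were higher in beta and alpha cells, and 15 and 5 in beta and delta cells, as fewer genes were compared. Between beta and delta cells, scaling to the ribosomal genes put 34 genes higher in delta cells, and scaling to all genes but hormones put 27 higher in beta and 37 in delta cells. Of the 64 genes in all tables, 23 (centred on the median), 25 (ribosomal) and 24 (all but hormones) were then highest in delta cells, and 17 in beta cells under the last. Where the interval had to exclude 1 as well, 11 genes were highest in alpha cells. Of the recomputed ratios of single genes, 306 stayed within their counting interval and 294 moved beyond it. Of 150 such ratios, 11 changed sign under at least 1 scaling, 0 of them past 2-fold. With all genes but hormones as the scale, the log2 ratio of beta over delta was -0.28 for Ptprn, -0.23 for Pcsk1n, -0.09 for Socs3, -0.37 for Sdf2l1, -0.39 for Tpi1 and -0.18 for Ndufa3, all positive as deposited.

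No paired analysis was possible because there was 1 control mouse, and for the same reason no replicate was left out in turn. Depth limits the low genes: over 101 delta cells, a count of 0 allows up to 0.0297 UMIs per cell. The total UMIs per alpha or delta cell, the cell filters and the level of free RNA are not known from these tables.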
